A study of Mus musculus with 28 samples.

Results

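Rbbp8, Cables1 and Tmem241 are the 3 protein-coding genes that follow Gata6 on mouse chromosome 18, towards higher coordinates, within 1 Mb of the Gata6 promoter. They were chosen by position, and they are 3 of the 10 protein-coding genes in that range. Their contacts with the Gata6 promoter were measured by 4C-seq (circular chromosome conformation capture, read out by sequencing). This assay crosslinks, digests and religates chromatin, and inverse PCR from 1 fragment, called the viewpoint, then recovers whatever DNA was ligated to it. All cells descend from E14Tg2a, a line of mouse embryonic stem cells (ESC), and were taken as ESC or, per the labels, after 5 days of differentiation into anterior neural progenitor cells (AntNPC).

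The groups differ in what was knocked into the Gata6 domain, and the insert came in each case from PE Sox1, a poised enhancer of Sox1. The inserts were its transcription factor binding sites together with its CpG island (TFBS+CGI), its binding sites alone (TFBS) or its CpG island alone (CGI), set against wild type (WT) cells with no insert. AntNPC of each of the 4 genotypes were profiled at day 5, and 1 library of CGI cells taken as ESC at day 0 was also used. The series holds other ESC libraries with Gata6 viewpoints, for each of these genotypes, which were not analysed here. The sources used here do not give the number of clones, the number of alleles that carry an insert or the coordinates of the insertion. The ESC library is labelled 2i+LIF, whereas its growth protocol names serum and LIF. There was 1 library per condition, so each difference below is between libraries, with no replicate check and no test. The intervals are 95% intervals for counting error only, since PCR reads without molecular identifiers are not independent molecules.

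Rbbp8 encodes CtIP, a cofactor of the nuclease complex that trims broken DNA ends before homologous recombination. Cables1 encodes an adaptor that links the kinases Cdk5 and Abl and takes part in the control of cyclin-dependent kinases. Tmem241 encodes a multi-pass membrane protein related in sequence to nucleotide-sugar transporters. Gata6 encodes a zinc finger transcription factor of endoderm and heart. A promoter contacts the chromatin around it less often the farther away it lies, and in 4C-seq this gives a steep fall of reads with distance on which preferred contacts stand out. The chromatin domain that holds a gene and its enhancers limits how far such contacts usually reach.

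On the mm10 build, Rbbp8 (gene 225182) spans chr18:11633276-11743207, which begins 580 kb from the viewpoint. Cables1 (gene 63955) spans chr18:11839274-11945627 and begins 786 kb away. Tmem241 (gene 338363) spans chr18:11980119-12121570 and begins 926 kb away, so it crosses the limit of 1 Mb. Each gene was measured over its span with 5 kb on each side, and 72.9 kb of the Tmem241 span beyond 1 Mb was left out, which leaves 78.5 kb of it. The measured lengths of Rbbp8 and Cables1 were 120 kb and 116 kb. The gene table used here gives no strand and no exons, so parts of a gene are named by coordinate only.

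Total reads were 7429563 in TFBS+CGI, 3000576 in TFBS, 2523331 in CGI and 6874974 in WT AntNPC, and 1023252 in CGI ESC. The viewpoint fragment, chr18:11053305-11053963, took 78.1% to 91.0% of them. The ESC library carries the label of an insertion viewpoint, but 83.1% of its reads lay on this same Gata6 promoter fragment. It is therefore treated as a promoter profile that goes against its label. Its genotype and cell labels were taken as given and were not tested. The series also holds a CGI ESC library labelled with the Gata6 promoter viewpoint, which was not analysed here. Local reads, which are those within 1 Mb of the viewpoint with 10 kb on each side left out, numbered 156021 on 1393 fragments in TFBS+CGI, 193257 on 2233 in TFBS, 67564 on 857 in CGI and 110891 on 1090 in WT AntNPC. CGI ESC had 61773 local reads on 1496 fragments. A local fragment therefore had 112, 86.5, 78.8 and 102 reads on average in these AntNPC libraries, in the same order, and 41.3 in CGI ESC. All shares below are shares of local reads, and a count of 0 allows a share of up to 0.00155% in TFBS, the deepest library locally, and of up to 0.00486% in CGI ESC.

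The libraries also differ in how much of the signal lies on the side of these genes. Reads right of the viewpoint, towards higher coordinates, were 51.8%, 59.6% and 59.8% of local reads in TFBS+CGI, TFBS and CGI AntNPC, against 50.8% in WT AntNPC, and 49.8% in CGI ESC. Most of them lay before Rbbp8. The 538 kb between the measured spans of Gata6 and Rbbp8, with no protein-coding gene in the table, held 35.0%, 43.7% and 43.4% of local reads in TFBS+CGI, TFBS and CGI AntNPC, against 28.9% in WT AntNPC, and 32.1% in CGI ESC. A larger share there leaves a smaller share for the rest, and its part in the values below was not tested.

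**Figure D1:**
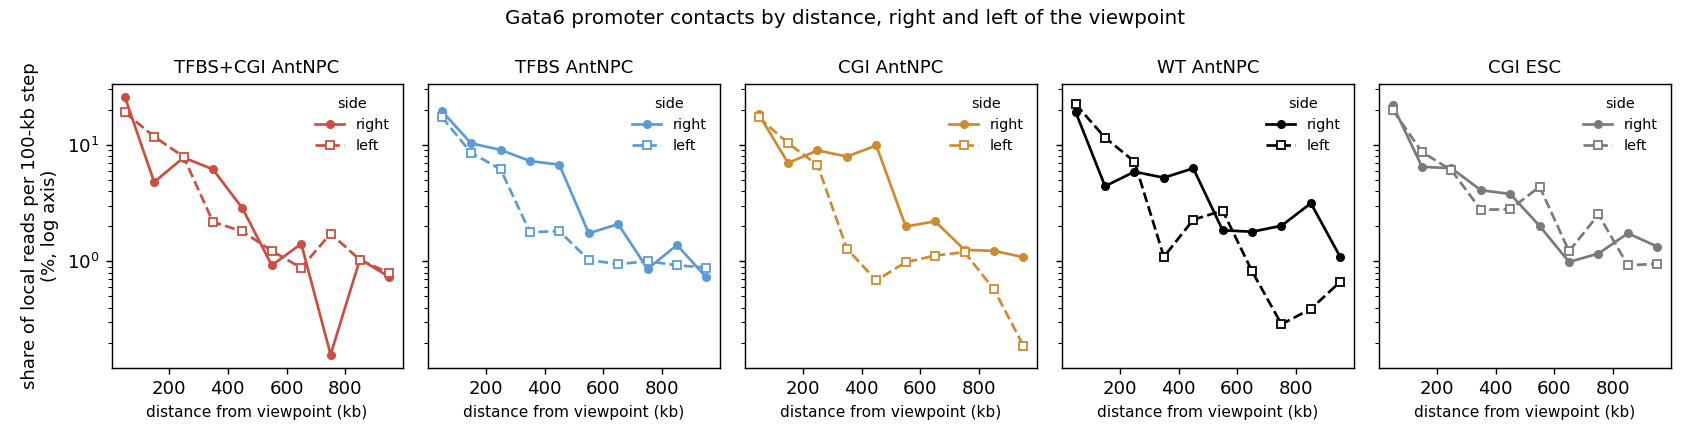
Share of local reads (%, log axis) per 100-kb step of distance from the viewpoint (kb) in each of the 5 libraries, right (filled circles, solid line) and left (open squares, dashed line). On the right, the step from 800 to 900 kb, which lies mostly on Cables1, held 1.05% in TFBS+CGI AntNPC, 1.38% in TFBS AntNPC and 1.23% in CGI AntNPC, against 3.15% in WT AntNPC, and 1.74% in CGI ESC.

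Rbbp8, the nearest of the genes, was the most even across genotypes. It had 2467 reads on 32 fragments in TFBS+CGI, 4433 on 86 in TFBS and 1491 on 20 in CGI AntNPC, against 2325 on 33 in WT AntNPC. Its share was 1.58% (1.52 to 1.64) in TFBS+CGI, 2.29% (2.23 to 2.36) in TFBS and 2.21% (2.10 to 2.32) in CGI AntNPC, against 2.10% (2.01 to 2.18) in WT AntNPC. Thus TFBS+CGI was the lowest AntNPC library for this DNA end resection gene, and the interval of CGI overlapped those of both TFBS and WT. CGI ESC was lower than any of them, with 882 reads on 35 fragments and a share of 1.43% (1.34 to 1.52).

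Cables1 had one library that stood apart, WT AntNPC. There were 1639 reads on 34 fragments in TFBS+CGI, 2832 on 63 in TFBS and 1041 on 17 in CGI AntNPC, against 3983 on 31 in WT AntNPC. The share was 1.05% (1.00 to 1.10) in TFBS+CGI, 1.47% (1.41 to 1.52) in TFBS and 1.54% (1.45 to 1.64) in CGI AntNPC, against 3.59% (3.48 to 3.70) in WT AntNPC. TFBS and CGI overlapped in their intervals and the other AntNPC libraries did not. CGI ESC, with 1229 reads on 34 fragments and a share of 1.99% (1.88 to 2.10), lay between WT and the insert libraries of AntNPC. By raw count, TFBS+CGI and TFBS each had more Cables1 fragments with reads than WT AntNPC. They also had more local fragments, at 1393 and 2233, against 1090 for WT AntNPC. The share of local fragments was highest for WT AntNPC, at 2.84%, followed by TFBS at 2.82% and TFBS+CGI at 2.44%. CGI ESC had 2.27% and CGI AntNPC 1.98%. The 95% intervals of these shares all overlapped.

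Tmem241, the farthest gene, was measured over 78.5 kb, less than the other genes, and had the smallest share in each library. It had 958 reads on 22 fragments in TFBS+CGI, 1156 on 29 in TFBS and 640 on 10 in CGI AntNPC, against 939 on 10 in WT AntNPC. Its share was 0.614% (0.576 to 0.654) in TFBS+CGI, 0.598% (0.565 to 0.634) in TFBS and 0.947% (0.877 to 1.02) in CGI AntNPC, against 0.847% (0.795 to 0.902) in WT AntNPC. The libraries with binding sites in the insert, TFBS+CGI and TFBS, were low and overlapped, and CGI and WT were higher and overlapped as well. This order did not hold under other measures. With the tallest fragment of each library left out, the log2 ratio of Tmem241 over WT was 0.09 in TFBS+CGI and 0.14 in TFBS, and with each fragment counted once it was 0.78 and 0.50, all above 0. CGI ESC was the highest, with 728 reads on 22 fragments and a share of 1.18% (1.10 to 1.27).

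**Figure D2:**
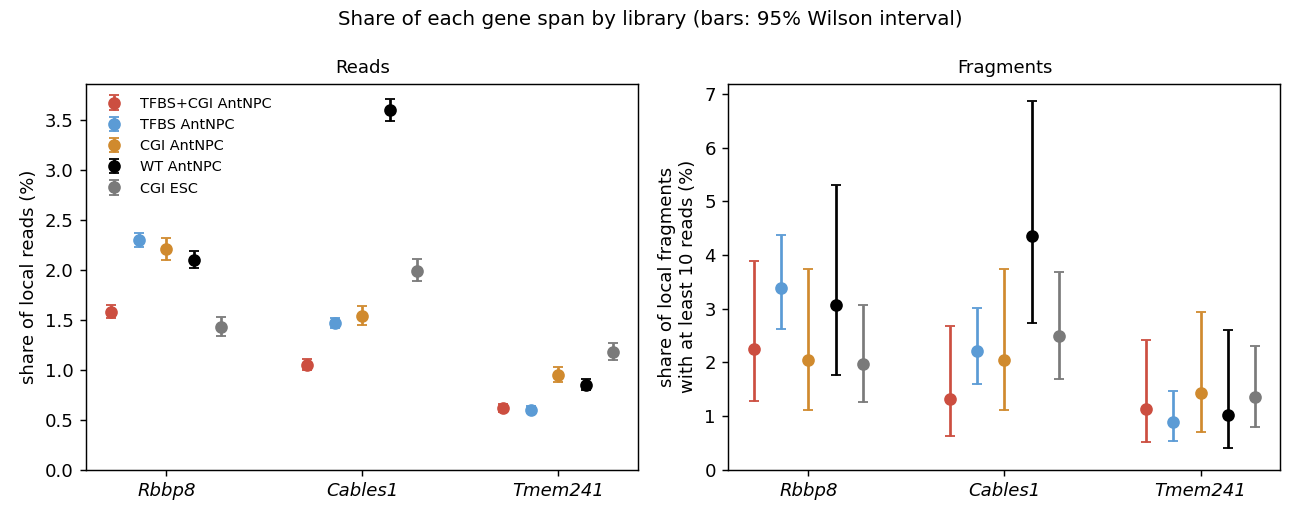
Left, share of local reads (%) of each gene span in each library. Right, share of the local fragments with at least 10 reads (%) that lie in the span. Points are single libraries and bars are 95% Wilson intervals for counting error. Cables1 in WT AntNPC is the highest point of each panel, at 3.59% of reads and 4.36% of fragments.

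The genes differ in measured length, so their levels were compared per kb. In TFBS+CGI the level was 0.0132% of local reads per kb at Rbbp8, 0.00903% at Cables1 and 0.00782% at Tmem241. In TFBS the levels were 0.0191%, 0.0126% and 0.00762% per kb in the same gene order, and in CGI AntNPC 0.0184%, 0.0132% and 0.0121%. These 3 libraries ran in order of distance, with Rbbp8 highest and Tmem241 lowest. WT AntNPC had 0.0175%, 0.0309% and 0.0108% per kb, so that Cables1 was the highest of the 3 in WT although it lies farther out than Rbbp8. CGI ESC had 0.0119%, 0.0171% and 0.0150% per kb, with Cables1 highest and Rbbp8 lowest. Among the 9 genes in range other than Gata6, Cables1 ranked 6 per kb in TFBS+CGI AntNPC, 5 in TFBS AntNPC and 3 in CGI AntNPC, against 2 in WT AntNPC, and 5 in CGI ESC. By fragments per kb instead of reads its rank was 5 or 6 in each of the 5 libraries.

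Across the 4 AntNPC libraries the highest share of Cables1 was 3.42 times the lowest, against 1.45 times for Rbbp8 and 1.58 times for Tmem241. For the other 7 genes in range this ratio ran from 1.28 at Gata6 to 23.3 at Snrpd1, the shortest of the genes, so the spread of Cables1 was not the widest. When fragments with any read were counted once each, the ratio was 1.43 for Cables1, 1.68 for Rbbp8 and 1.72 for Tmem241, and it ran from 1.18 to 2.34 over the other genes. Cables1 was among the more even genes on that scale.

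The signal over these genes is sparse, and the profiles of 10-kb tiles show it as separate spikes. Of the 12 tiles of Rbbp8, 10 to 12 had reads in each library, and of the 12 tiles of Cables1, 9 to 12 had reads. The highest Cables1 tile held 0.355% of local reads in TFBS+CGI AntNPC, 0.315% in TFBS AntNPC and 0.334% in CGI AntNPC, against 1.10% in WT AntNPC, and 0.395% in CGI ESC. In WT it was chr18:11933634-11943634, whose 1224 reads made up 30.7% of the reads of the Cables1 tiles, and in the other libraries it lay elsewhere. For Rbbp8 the highest tile held 0.779% of local reads in CGI AntNPC and 0.533% in WT AntNPC, and less in the other libraries.

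**Figure D3:**
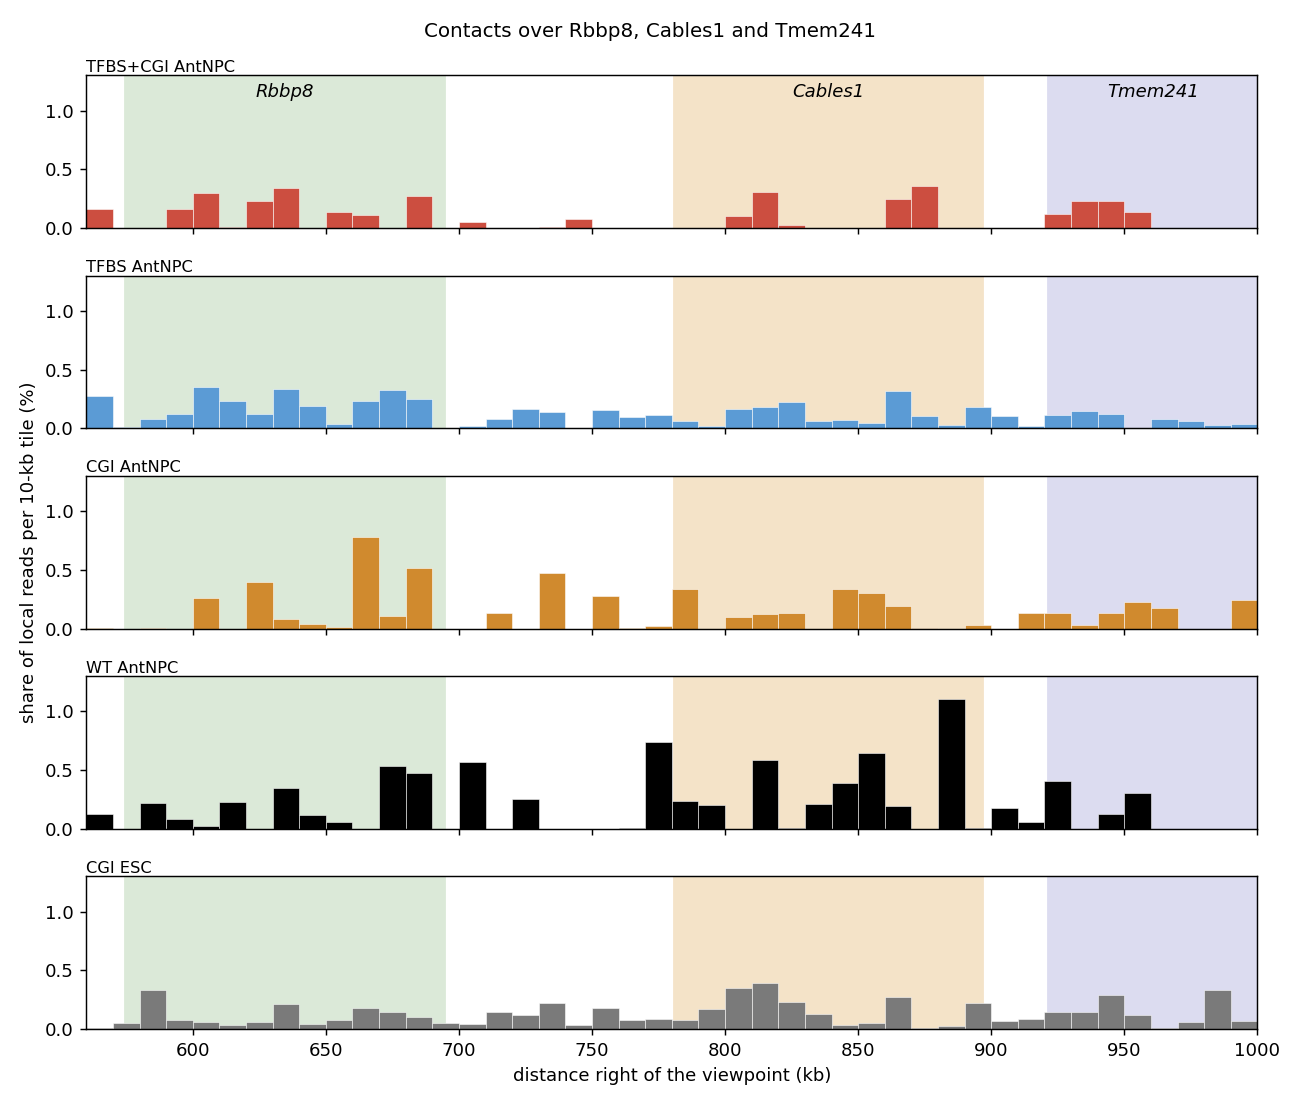
Share of local reads (%) per 10-kb tile against distance right of the viewpoint (kb) in each library, with the measured spans of Rbbp8 (green), Cables1 (orange) and Tmem241 (violet) shaded. The tallest tile of the plot is in WT AntNPC near the far end of Cables1, at 1.10%.

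Where the reads lay within a gene also differed. Each gene body without its flanks, and the part of Tmem241 within 1 Mb, was divided into equal low-coordinate, middle and high-coordinate stretches. The high-coordinate stretch of Cables1 held 57.7% of its reads in TFBS+CGI AntNPC, 36.7% in TFBS AntNPC and 13.1% in CGI AntNPC, against 55.6% in WT AntNPC, and 18.2% in CGI ESC. The middle stretch held 2.69% in TFBS+CGI AntNPC, 29.3% in TFBS AntNPC and 50.8% in CGI AntNPC, against 17.1% in WT AntNPC, and 26.6% in CGI ESC. TFBS was thus the most even over Cables1 and TFBS+CGI had almost no reads in its middle. For Rbbp8 the high-coordinate stretch held 33.4% in TFBS+CGI AntNPC, 36.6% in TFBS AntNPC and 64.0% in CGI AntNPC, against 48.3% in WT AntNPC, and 32.6% in CGI ESC. For Tmem241 the low-coordinate stretch, the one nearest the viewpoint, held 76.2% in TFBS+CGI AntNPC, 56.3% in TFBS AntNPC and 31.7% in CGI AntNPC, against 62.6% in WT AntNPC, and 49.3% in CGI ESC.

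A few fragments carried most of each gene's reads. At Cables1, 50% of the reads lay on 2 fragments in TFBS+CGI AntNPC, 10 in TFBS AntNPC and 3 in CGI AntNPC, against 4 in WT AntNPC, and 8 in CGI ESC. The tallest fragment held 33.8% of the Cables1 reads in TFBS+CGI AntNPC, 14.4% in TFBS AntNPC and 21.5% in CGI AntNPC, against 19.7% in WT AntNPC, and 9.76% in CGI ESC. At Tmem241 the tallest fragment held 47.7% of the gene's reads in WT AntNPC, so that library's level rests on 448 reads of 1 fragment of 742 bp. TFBS had the most fragments of each gene. At Rbbp8 its distribution was the flattest, with 4.49% of the reads on its tallest fragment, against 21.4% to 23.4% in the other 4 libraries.

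The tallest fragment of a gene in 1 library was nearly always low or empty in the others. For Cables1 in TFBS+CGI it was chr18:11925988-11926086 with 554 reads, against 0 in WT AntNPC. In TFBS it was chr18:11918160-11918342 with 409 reads, against 5 in WT AntNPC, and CGI ESC had 43 there. In CGI AntNPC it was chr18:11840731-11840955 with 224 reads, against 0 in WT AntNPC, and CGI ESC had 16. In WT AntNPC it was chr18:11941247-11941520, which had 0 reads in TFBS+CGI AntNPC, 3 in TFBS AntNPC and 0 in CGI AntNPC, against 783 in WT AntNPC, and 1 in CGI ESC. Each library thus had its own tallest Cables1 fragment, at distances from 787 kb to 888 kb from the viewpoint.

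Exceptions were found at the other genes. The tallest Tmem241 fragment of TFBS+CGI, chr18:11998296-11998356, had 221 reads and also had 206 in TFBS, against 0 in WT AntNPC. The tallest Tmem241 fragment of WT AntNPC, chr18:11982125-11982866, had 1 read in TFBS+CGI AntNPC, 3 in TFBS AntNPC and 90 in CGI AntNPC, against 448 in WT. The tallest Rbbp8 fragment of CGI AntNPC, chr18:11736575-11736848, had 345 reads there and 120 in TFBS, against 0 in WT AntNPC. The tallest Rbbp8 fragment of WT AntNPC had 544 reads and at most 2 in any other library.

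**Figure D4:**
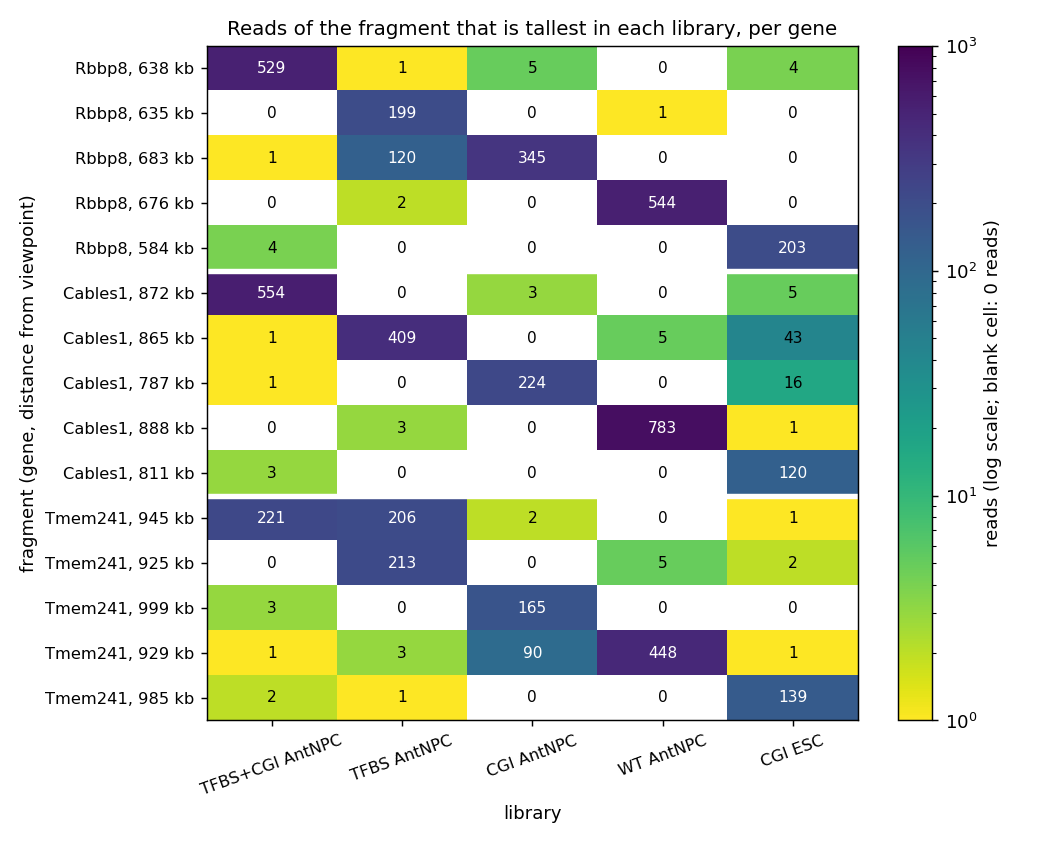
Reads (colour, log scale, with the number in the cell) of the fragment that is tallest in each library, for each gene, in all 5 libraries. Rows name the gene and the distance of the fragment from the viewpoint. The high values lie mainly on 1 cell per row, such as 783 reads in WT AntNPC for Cables1 at 888 kb.

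Over the 3 genes, 269 fragments had a read in at least 1 library. Of these, 133 were seen in 1 library, 87 in 2, 27 in 3, 20 in 4 and 2 in all 5. That is 49.4% in 1 library and 0.743% in all 5, beside 35.4% and 6.44% of the 3167 fragments seen anywhere in the local range. That background, used again below, includes the stretches near the viewpoint and was not matched for distance. The fragment of Cables1 seen in all libraries, chr18:11870760-11870820, had 407 reads in TFBS+CGI AntNPC, 80 in TFBS AntNPC and 1 in CGI AntNPC, against 1 in WT AntNPC, and 2 in CGI ESC. The other was the tallest Tmem241 fragment of WT AntNPC described above. Even a fragment found everywhere was thus high in some libraries and near 0 in the rest.

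Libraries shared fragments unequally. TFBS had reads on 65 of the 74 fragments that WT AntNPC had over the 3 genes, which is 87.8% of the WT fragments and 36.5% of those of TFBS. Over all local fragments these shares were 91.6% of WT and 44.7% of TFBS. TFBS+CGI had 20 fragments in common with WT, or 27.0% of the WT fragments and 22.7% of its own, whereas over all local fragments it had 44.1% and 34.5%. CGI AntNPC had 7 in common with WT, or 9.46% of the WT fragments and 14.9% of its own, whereas over all local fragments it had 28.9% and 36.8%. Most of the fragments that TFBS shared with WT were low in at least 1 library, since 61 of the 65 had under 10 reads in TFBS or in WT and 4 had at least 10 in both. Carry-over of reads between libraries was not tested, and such low counts enter the values given below with fragments counted once or over shared fragments.

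The first question was whether cells with the full TFBS+CGI insert differ from WT AntNPC over these genes. The summed share of the genes was 3.25% in TFBS+CGI, against 6.54% in WT, a log2 ratio of -1.01 (-1.06 to -0.96). By gene the log2 ratio was -0.41 at Rbbp8, -1.77 at Cables1 and -0.46 at Tmem241, beside a median of -0.036 over the other 7 genes in range, which ran from -0.94 to 0.27. Those other genes are Gata6 and the 6 genes left of the viewpoint, so medians over them, here and below, do not hold the side fixed. Without Cables1 the summed ratio was -0.42. Cables1 was the only gene of the 10 at least 2-fold lower (10% of genes), and no gene was at least 2-fold higher (0%).

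Counted over all fragments with reads, the lower Cables1 share of TFBS+CGI went with fewer reads per fragment. Its fragments had 48.2 reads on average in TFBS+CGI, against 128 in WT, while its share of local fragments was 2.44% in TFBS+CGI, against 2.84% in WT. On the log2 scale the fragment share accounted for -0.22 (-0.97 to 0.53) and reads per fragment, relative to all local fragments, for -1.55. Of local fragments with at least 10 reads, a limit chosen after the data were seen, 7 of 535 lay in Cables1 in TFBS+CGI, against 17 of 390 in WT. That is 1.31% in TFBS+CGI, against 4.36% in WT, a log2 ratio of -1.74 (-3.25 to -0.39). The log2 ratio of Cables1 reads on such fragments was -1.81, so the split depends on whether fragments with few reads are counted. The intervals of the ratios by all fragments and by well-covered fragments overlap, and the difference between them was not tested.

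In the TFBS library the summed share was 4.36%, against 6.54% in WT, a log2 ratio of -0.58 (-0.63 to -0.54). The 3 genes did not move alike, with log2 ratios of 0.13 at Rbbp8, -1.29 at Cables1 and -0.50 at Tmem241, beside a median of -0.36 over the other 7 genes. Without Cables1 the summed ratio was -0.03. Cables1 was again the single gene at least 2-fold lower (10% of genes), in a comparison that uses the same WT library, and no gene was 2-fold higher (0%). Its share of local fragments was 2.82% in TFBS, against 2.84% in WT, a log2 ratio of -0.01 (-0.65 to 0.66). Over all fragments with reads, nearly all of the difference thus lay in reads per fragment (-1.28). With fragments of at least 10 reads counted once, 2.20% lay in Cables1 in TFBS, against 4.36% in WT, a log2 ratio of -0.98 (-1.85 to -0.06). The log2 ratio of Cables1 reads on such fragments was -1.32, so the split depends on whether fragments with few reads are counted. In RPM as deposited, without rescaling to local reads, Cables1 was higher in TFBS than in WT, at a log2 ratio of 0.70.

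In the CGI library of AntNPC the summed share was 4.69%, against 6.54% in WT, a log2 ratio of -0.48 (-0.54 to -0.42). Rbbp8 had a log2 ratio of 0.07 (-0.02 to 0.17), Tmem241 of 0.16 (0.01 to 0.31) and Cables1 of -1.22, beside a median of -0.49 over the other 7 genes. Rbbp8 and Tmem241 were thus close to WT, and without Cables1 the summed ratio was 0.10. At least 2-fold lower genes made up 30% here, so Cables1 was 1 of 3, and 0% were higher. The Cables1 share of local fragments was 1.98% in CGI, against 2.84% in WT, a log2 ratio of -0.52 (-1.47 to 0.38). Fragments of at least 10 reads gave 2.05% in CGI, against 4.36% in WT, a log2 ratio of -1.09 (-2.38 to 0.12), and this interval includes 0. Over the 3 Cables1 fragments that both libraries share the log2 ratio was 5.51, the opposite direction.

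These 3 comparisons share the WT library, so the low Cables1 values beside it are not independent of each other. WT AntNPC had reads on 31 Cables1 fragments, of which 14 had under 10 reads. With the tallest Cables1 fragment of each library left out, the log2 ratios over WT were -2.05 in TFBS+CGI and -1.20 in TFBS. That setting took 783 reads from WT, but also 554 from TFBS+CGI and 409 from TFBS. It therefore does not isolate the tallest WT fragment, and how much of the difference that fragment carries was not tested.

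TFBS+CGI and TFBS share the binding sites, and their comparison asks what the CpG island adds to them. The summed share was 3.25% in TFBS+CGI, against 4.36% in TFBS, a log2 ratio of -0.42 (-0.48 to -0.37). Rbbp8 had a log2 ratio of -0.54 (-0.61 to -0.47) and Cables1 of -0.48 (-0.57 to -0.39), whereas Tmem241 had 0.04 (-0.09 to 0.16). The median over the other 7 genes was -0.11. No member was at least 2-fold lower, where 10% of the genes were, and 0% were higher. Rbbp8 also had the smaller share of local fragments in TFBS+CGI, at 2.30%, against 3.85% in TFBS, a log2 ratio of -0.75 (-1.38 to -0.14). With fragments of at least 10 reads counted once, the Rbbp8 ratio was -0.60 (-1.63 to 0.32), an interval that includes 0. Of 11 alternatives for Rbbp8, 10 stayed below 0 and 1, the shared fragments, gave 0.52.

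CGI cells were compared between AntNPC and ESC, with the ESC library taken as a promoter profile as described above. The summed share was 4.69% in AntNPC, against 4.60% in ESC, a log2 ratio of 0.03 (-0.04 to 0.10). Beneath this near equality the genes went different ways. Rbbp8 was higher in AntNPC, at a log2 ratio of 0.63 (0.51 to 0.75), and Cables1 and Tmem241 were lower, at -0.37 (-0.49 to -0.25) and -0.32 (-0.47 to -0.16). The median over the other 7 genes was -1.40, and Rbbp8 was the only gene of the 10 with a ratio above 0. Those 7 are Gata6 and the 6 genes left of the viewpoint. Reads right of the viewpoint were 59.8% of local reads in CGI AntNPC, against 49.8% in CGI ESC. How far this difference between sides enters the ratios was not tested. None of these 3 genes was at least 2-fold lower in AntNPC, where 50% of the genes were. Rbbp8 had 2.33% of local fragments in AntNPC, against 2.34% in ESC, while its fragments had 74.6 reads on average in AntNPC, against 25.2 in ESC. These directions depend on the measure. By deposited RPM all 3 genes were lower in AntNPC, with log2 ratios of -0.55 at Rbbp8, -1.54 at Cables1 and -1.49 at Tmem241, the last 2 past 2-fold. Over fragments seen in both libraries the ratios were -1.87 at Rbbp8, 1.27 at Cables1 and 4.81 at Tmem241, each opposite in sign to the share of local reads. They rest on only 5, 6 and 2 shared fragments in the same gene order. Of these 13 fragments, 2 had at least 10 reads in both libraries.

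**Figure D5:**
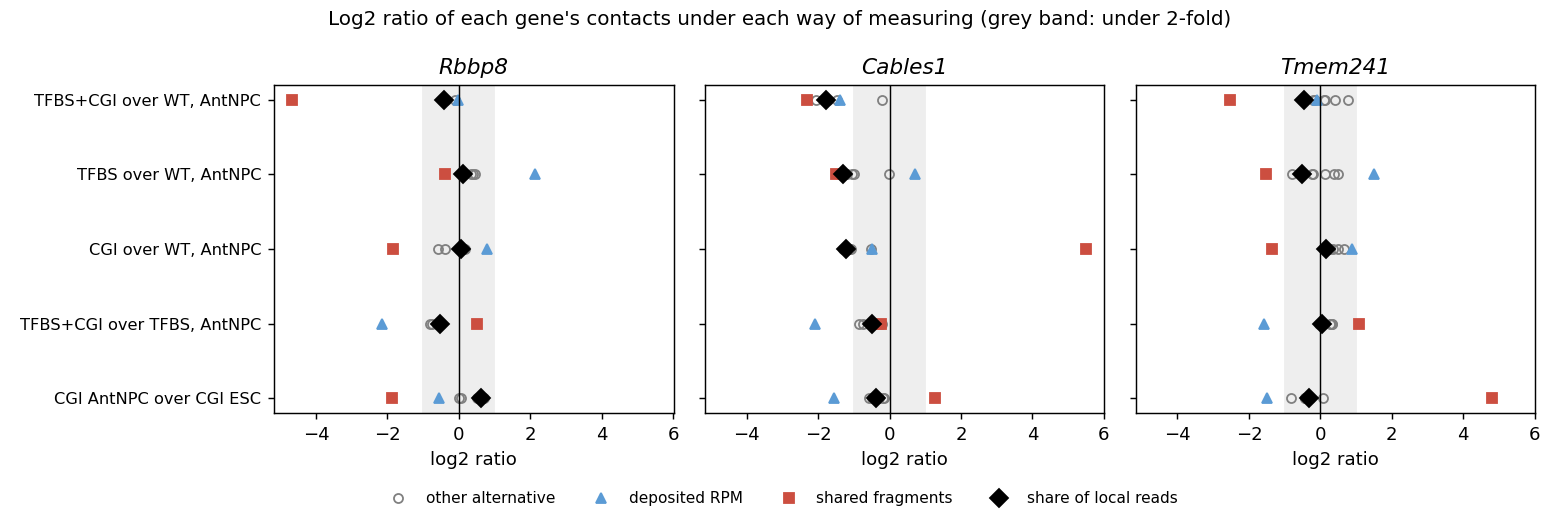
Log2 ratio of each gene in each comparison by share of local reads (black diamonds), by deposited RPM (blue triangles), over fragments seen in both libraries (red squares) and under the other alternatives (grey circles). The grey band marks differences under 2-fold. The Cables1 diamonds lie at -1.77, -1.29 and -1.22 over WT, left of the band, and the red square of CGI over WT lies at 5.51.

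Counts of 10-kb tiles give the same comparisons without the weight of the tallest spikes. Tiles were compared where both libraries had reads and their sum was at least 10, and 32 tiles have their midpoint in the 3 spans. In TFBS+CGI over WT, 7 of 26 such tiles were at least 2-fold higher and 13 lower, while 35.2% of all local tiles were higher and 32.7% lower. At Cables1, 3 of 12 tiles were higher and 7 lower. In TFBS over WT, 12 of 31 tiles were higher and 10 lower, beside 42.9% higher and 20.3% lower of all local tiles. The split at Cables1 was 4 higher and 7 lower. In CGI over WT, 8 of 23 were higher and 9 lower, beside 36.2% and 27.5%. Here Cables1 had 3 higher and 2 lower tiles of 8 compared, and 3 further tiles had reads in WT only.

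Tiles past 2-fold were common over the whole range, so a single changed tile says little. In TFBS+CGI over TFBS, 3 of 30 tiles were at least 2-fold higher and 16 lower, beside 15.8% higher and 37.7% lower of all local tiles. Of these, 8 of the 12 Cables1 tiles were lower. In CGI AntNPC over ESC, 9 of 24 tiles were higher and 9 lower, beside 23.5% higher and 32.7% lower. Among the tiles of the 3 genes alone, the extreme tiles lay next to each other in TFBS+CGI over WT. The largest log2 ratio was at chr18:11923634-11933634 in Cables1, with 554 reads in TFBS+CGI, against 1 in WT, a log2 ratio of 8.62 (6.14 to 13.93). The next tile, chr18:11933634-11943634, had the smallest ratio of these tiles, with 1 read in TFBS+CGI, against 1224 in WT, a log2 ratio of -10.75 (-16.05 to -8.27).

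The extremes of the other comparisons, again among the tiles of these genes and not of the whole range, were of the same kind. In TFBS over WT a Cables1 tile, chr18:11853634-11863634, was the largest with 320 reads in TFBS, against 1 in WT. The smallest was a Tmem241 tile, chr18:12003634-12013634, with 4 reads in TFBS, against 344 in WT. In CGI over WT both were Rbbp8 tiles, chr18:11713634-11723634 with 526 reads in CGI, against 2 in WT, and chr18:11643634-11653634 with 1 read in CGI, against 94 in WT. In TFBS+CGI over TFBS the same Tmem241 tile was the largest, with 220 reads in TFBS+CGI, against 4 in TFBS, and an Rbbp8 tile, chr18:11693634-11703634, the smallest, with 2 reads in TFBS+CGI, against 372 in TFBS. In CGI AntNPC over ESC a Tmem241 tile, chr18:12013634-12023634, had 119 reads in AntNPC, against 6 in ESC, and an Rbbp8 tile, chr18:11633634-11643634, had 3 reads in AntNPC, against 207 in ESC.

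Each span was set beside its counterpart left of the viewpoint, at equal distance and of equal length, which holds distance fixed within a library. The counterpart of Cables1 on the left overlaps Rock1. In TFBS+CGI, Cables1 had 1639 reads and its counterpart 2538, a log2 ratio of -0.63 (-0.72 to -0.54). TFBS and CGI AntNPC had ratios of 0.48 (0.40 to 0.57) and 0.52 (0.39 to 0.66). In WT AntNPC the ratio was 3.16 (3.01 to 3.30), with 3983 reads at Cables1 and 447 on the left, and CGI ESC had 0.87 (0.73 to 1.01). By reads Cables1 thus exceeded its counterpart in 4 of the 5 libraries, by far the most in WT AntNPC. By number of fragments it did so in all 5, with 34 against 18 in TFBS+CGI and 31 against 19 in WT AntNPC. The counterpart itself held 1.63% of local reads in TFBS+CGI AntNPC, 1.05% in TFBS AntNPC and 1.07% in CGI AntNPC, against 0.403% in WT AntNPC, and 1.09% in CGI ESC, so it was low in WT.

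Rbbp8 exceeded its counterpart, which overlaps Greb1l, in the 4 AntNPC libraries. The log2 ratio was 0.83 (0.74 to 0.93) in TFBS+CGI, 0.94 (0.87 to 1.01) in TFBS and 0.43 (0.32 to 0.55) in CGI AntNPC, against 1.35 (1.24 to 1.46) in WT AntNPC. In CGI ESC it was below its counterpart, at -0.52 (-0.64 to -0.39). Tmem241, set against a stretch that overlaps Rock1, had ratios of 0.16 (0.03 to 0.30) in TFBS+CGI, -0.30 (-0.41 to -0.19) in TFBS and 2.36 (2.08 to 2.64) in CGI AntNPC, against 0.91 (0.75 to 1.07) in WT AntNPC, and 0.90 in CGI ESC. The CGI value rests on 125 reads on the left. By number of fragments Tmem241 had 29 against 22 in TFBS and 10 against 13 in WT AntNPC, each opposite to the reads. The other libraries kept their direction.

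By share of reads, the stretches between the genes were low as well in the insert libraries. Between the measured spans of Rbbp8 and Cables1, 86.1 kb held 0.155% of local reads in TFBS+CGI AntNPC, 0.775% in TFBS AntNPC and 0.921% in CGI AntNPC, against 1.58% in WT AntNPC, and 0.932% in CGI ESC. The 24.5 kb between Cables1 and Tmem241 held 0.118%, 0.130% and 0.161% in these insert libraries in the same order, against 0.239% in WT AntNPC, and 0.162% in CGI ESC. By reads, the higher WT share was therefore not limited to the Cables1 span. These shares rest on few fragments. Between Rbbp8 and Cables1, WT AntNPC had 14 fragments, TFBS+CGI 16, TFBS 32, CGI AntNPC 6 and CGI ESC 21. Between Cables1 and Tmem241 the numbers were 4, 5, 8, 3 and 6, in the same order of libraries. By number of fragments WT AntNPC was thus below TFBS+CGI and TFBS in each stretch, and above CGI AntNPC. These numbers were not scaled to the local fragments of each library. Per kb, the stretch between Rbbp8 and Cables1 held 0.00180% in TFBS+CGI, against 0.0183% in WT, and Cables1 itself 0.00903% in TFBS+CGI, against 0.0309% in WT.

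Likeness of profile was measured as the root mean square difference between log2 shares over the 5 libraries, each gene centred on its own mean. The closest to Rbbp8 were Gata6, the viewpoint's own gene, and Mib1, a ubiquitin ligase gene on the left, at 0.37 each. The closest to Cables1 were Tmem241 at 0.53 and Greb1l at 0.55, both farther off than the closest genes of the other members. The closest to Tmem241 were Greb1l at 0.31 and Gata6 at 0.41. Rbbp8 and Cables1 differed from each other by 0.60, although they are neighbours.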

How the data were processed

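Each of the 5 libraries was deposited by the authors as restriction fragments with values in RPM (reads scaled to library depth). The labels' protocols name NlaIII and DpnII, and the submitters' processing notes name HISAT2 and mm10. No HISAT2 version or read filter is given in the sources used here. All values (100%) were whole multiples of the library's smallest value within a tolerance of 0.1, so reads were recovered by division. With 1 library per condition no count test was run. The other 23 of the series' 28 samples were not analysed here.

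The viewpoint was the fragment with the highest count, and fragments were assigned to genes by midpoint. Genes came from RefSeq GRCm38.p6, the assembly of mm10. Shares have Wilson intervals, and log2 ratios have exact conditional (Clopper-Pearson) intervals, at 95%. The ratio and tile computations were tested on simulated data. The genes, the comparisons and the lists were chosen with earlier results of these data known. The named items were the 3 genes, the tallest fragment per gene and library, the extreme tile of each comparison each way, and the 2 genes most like each member. Alternatives were deposited RPM, the share of chromosome 18 reads, 25 kb left out, gene flanks of 0 or 10 kb, values capped at the 99th percentile, the tallest fragment left out, fragments under 10 reads left out, fragments counted once, shared fragments, a 1.5-Mb range, other tiles and, chosen after seeing the data, leaving out Cables1 and counting fragments with at least 10 reads once. Python 3.11.15, numpy 2.4.6, scipy 1.17.1, pandas 2.3.3 and matplotlib 3.10.9 were used. No sequences of chromosome 18 are shown.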

Additional observations from a re-analysis of the deposited data

Results flagged for a closer look

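The part of Tmem241 beyond 1 Mb, which the comparisons leave out, stood above the WT level in both libraries with binding sites in the insert. It spans 72.9 kb with its flank. Relative to local reads, it held 0.649% (0.610 to 0.690) in TFBS+CGI, from 1012 reads on 10 fragments, and 0.634% (0.600 to 0.671) in TFBS, from 1226 reads on 27 fragments, against 0.0983% (0.0815 to 0.119) in WT AntNPC, from 109 reads on 10 fragments. CGI AntNPC was at 0.0888%, below WT, and CGI ESC at 0.725%. In TFBS+CGI the tallest fragment held 46.5% of these reads and in TFBS 17.9%, against 89.0% in WT AntNPC. Over its whole span Tmem241 held 1.26% in TFBS+CGI AntNPC and 1.23% in TFBS AntNPC, against 0.945% in WT AntNPC, whereas its part within 1 Mb was lower in both than in WT. The direction at this gene thus depends on where the range ends. With a 1.5-Mb range its log2 ratio over WT was 0.42 in TFBS+CGI and 0.39 in TFBS.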

How the results depend on the processing

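No paired analysis was possible because each condition has 1 library. Over 11 alternatives, without those chosen after seeing the data, the Cables1 ratio stayed below 0 in all for TFBS+CGI over WT, and in 10 for TFBS over WT and for CGI over WT. The exceptions were deposited RPM for TFBS (0.70) and the shared fragments for CGI (5.51). Cables1 stayed at least 2-fold lower than WT in 10 of them for TFBS+CGI, 9 for TFBS and 8 for CGI, and the call for CGI was lost by RPM, at -0.49, and with fragments counted once, at -0.52. Fragments counted once also ended it for TFBS+CGI, at -0.22, and TFBS, at -0.01. RPM moves every value of a comparison by the same amount, since it divides by total reads. The shared-fragment values rest on few fragments, and otherwise the cause was not tested. Within a comparison, some other alternatives also moved Rbbp8, Cables1 and Tmem241 by the same amount. These were the share of chromosome 18 reads, 25 kb left out and capped values. The 1.5-Mb range did so for Rbbp8 and Cables1. The counts of alternatives above include all of these settings, so they are not counts of independent checks.

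The summed log2 ratio of TFBS+CGI over WT was -0.63 by deposited RPM, -0.71 as a share of chromosome 18, -0.10 with fragments counted once, -2.45 over shared fragments, -0.76 with a 1.5-Mb range, -0.42 without Cables1 and -0.86 with fragments of at least 10 reads counted once. That of TFBS over WT was 1.41 by RPM, -0.33 as a share of chromosome 18, -0.63 with 25 kb left out, -0.65 without flanks, -0.33 without the tallest fragments, 0.23 with fragments counted once, -1.02 over shared fragments, -0.41 with a 1.5-Mb range, -0.025 without Cables1 and -0.38 with fragments of at least 10 reads. That of CGI over WT was 0.25 by RPM, -0.36 as a share of chromosome 18, -0.55 with 25 kb left out, -0.31 with fragments counted once, -0.94 over shared fragments, 0.10 without Cables1 and -0.61 with fragments of at least 10 reads.

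For TFBS+CGI over TFBS it was -2.04 by RPM, -0.34 without flanks, -0.71 without the tallest fragments, -0.34 with fragments counted once, 0.36 over shared fragments and -0.35 with a 1.5-Mb range. For CGI AntNPC over ESC it was -1.14 by RPM, -0.079 as a share of chromosome 18, 0.15 without flanks, -0.093 without the tallest fragments, -0.15 with fragments counted once, 1.22 over shared fragments, -0.10 with a 1.5-Mb range, 0.28 without Cables1 and -0.075 with fragments of at least 10 reads. Of the tiles over the genes, the share past 2-fold in TFBS+CGI over TFBS was 63.3% with 10-kb tiles, 80.5% with 5-kb tiles and 35.7% with 20-kb tiles. Over all local tiles it was 53.6%, 64.2% and 41.2% in the same order of tile size, so the background moved with tile size too. How far depth limits the values of single fragments was not tested.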
